A study of Mus musculus with 62 samples.

Results

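Solute carrier (Slc) genes were examined in the mouse heart and in C2C12 cells, a mouse myoblast line, by RNA-seq and by Ribo-seq, which sequences the mRNA fragments held by ribosomes. A gene was included if its symbol begins with Slc and a digit and if the mean RNA-seq count of its most abundant transcript was 10 or more in either source. Of 10476 genes in the table, 176 had such a symbol and 107 met the minimum, 83 of them in both sources, 15 only in the heart and 9 only in C2C12 cells. The 69 genes below the minimum are not described. Just inside the minimum were Slc12a8 (10.1 counts) and Slc2a10 (10.6 counts), and just outside were Slc22a6 (9.67 counts) and Slc7a13 (9 counts). All matched transcripts of the table lie on the plus strand of the genome, and 195 of the 379 annotated Slc genes, those of the other strand, could not be described.

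The study asked how RPL3L, a paralog of the ribosomal protein RPL3 made in heart and skeletal muscle, affects translation. Hearts came from male C57BL/6J mice at 10 weeks of age, 4 wild-type (WT) and 4 Rpl3l KO mice, in which deletion of exon 2 by CRISPR-Cas9 disrupts Rpl3l in every tissue. C2C12 cells were infected with a retrovirus for mouse RPL3 (RPL3 OE), for mouse RPL3L (RPL3L OE) or with the empty virus (Control), selected with puromycin and kept proliferating, with 3 samples per group. The study calls the C2C12 Ribo-seq samples biologically independent but does not say whether they are separate infections, and no source used here says so of the RNA-seq samples. The p-values measure the spread between these samples.

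Solute carriers are membrane proteins that move ions, nutrients and metabolites across the plasma membrane and the membranes of mitochondria and other organelles, by facilitated diffusion or by coupling to ion gradients. Heart muscle relies on carriers of fatty acids, lactate, creatine and phosphate, on the mitochondrial SLC25 carriers that exchange ADP for ATP and import acylcarnitines, and on bicarbonate and proton exchangers that set the cytosolic pH. Proliferating cells take up glucose through GLUT1 (Slc2a1) and export lactate through MCT4 (Slc16a3). The genes were grouped by family number into roles. The symbols Slc4a1ap and Slc9a3r1 name an adaptor protein and the scaffold NHERF1, which are not transporters but meet the rule. By family number, both were counted with the ion and pH genes, and the creatine transporter gene Slc6a8 with the amino acid carriers.

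Library totals ranged from 3594696 to 29746110 counts in RNA-seq and from 1606700 to 6093268 counts in Ribo-seq. The Rpl3l transcript gave 401 to 516 CPM (counts scaled to a fixed library total) in RNA-seq of WT hearts and 24.4 to 37.0 CPM in Rpl3l KO hearts. In RNA-seq of C2C12 cells, it gave 1996 to 2053 CPM in RPL3L OE samples and at most 0.819 CPM in the other groups. In Ribo-seq, it gave 266 to 290 CPM in WT and 6.03 to 13.1 CPM in KO hearts. Its footprints were at 1239 to 1299 CPM in RPL3L OE samples and at 3.97 to 7.89 CPM in the other C2C12 groups. Of 14 cardiomyocyte markers 7 were in the table, and their summed RNA-seq level was 47790 to 56658 CPM in WT hearts and 233 to 237 CPM in Control cells, where the RNA of Myl3, Mybpc3, Pln and Nppa was at 0. In Ribo-seq of Control cells, the sum was 52.5 to 76.4 CPM and no marker was at 0 in every library. The myoblast markers Myod1, Myog and Cdh15 were at 0 in RNA-seq of all hearts and were detected in Control cells. The other myoblast markers in the table were present in both sources. Mean Vim RNA was at 329 CPM in WT hearts and 4344 CPM in Control cells. Des went the other way, at 1709 CPM in WT hearts and 256 CPM in Control cells.

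Markers of airway tissue differed widely between hearts. The summed RNA-seq level of airway markers (6 of 10 in the table) was 1.11, 437, 4.45 and 119 CPM in WT hearts 1 to 4 and 1085, 0.750, 1602 and 0.823 CPM in KO hearts 1 to 4. In Ribo-seq, the sums were 5.01, 1023, 19.6 and 295 CPM in WT hearts and 2249, 3018, 0.622 and 4.76 CPM in KO hearts. KO hearts 2 and 3 thus changed places between the assays. The 2 assays of 1 number were compared by their deviations from the group means, which correlated at 0.33 to 0.68 in the other 6 hearts but at -0.64 and -0.70 in KO hearts 2 and 3. RNA-seq library 2 was closest to Ribo-seq library 3 (r = 0.72) and RNA-seq library 3 to Ribo-seq library 2 (r = 0.75). The tests below do not pair the assays by number, apart from the fits with a replicate block that were run as alternatives. The summed RNA-seq level of fat markers also varied, at 219, 363, 114 and 484 CPM in WT hearts and 609, 54.3, 1051 and 110 CPM in KO hearts. In such bulk samples, fewer cells of a type and less RNA per cell cannot be told apart.

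The 107 Slc genes together accounted for 2541 ± 217 CPM (SD, n = 4) of the RNA-seq counts and 4345 ± 195 CPM of the Ribo-seq counts in WT hearts. In Control C2C12 cells, the sums were 3577 ± 66.4 CPM (SD, n = 3) and 4893 ± 90.4 CPM. An RNA-seq level of at least 1 CPM was found for 90 genes in WT hearts and for 88 genes in Control cells. Mitochondrial carriers (12 genes) made up 23.3% of the summed Slc CPM of RNA-seq in WT hearts and 28.2% in Control cells. Carriers of inorganic ions and pH regulators (24 genes) made up 19.3% and 14.3%, and sugar carriers (5 genes) 0.787% and 3.33%. These sums and shares leave out Slc genes of the minus strand and so describe only part of the family.

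Among the Slc genes described, Slc25a5 had the highest RNA-seq level per kb of transcript in WT hearts, at 270 ± 31.6 CPM per kb (SD, n = 4). It encodes the ADP/ATP carrier ANT2. The next was Slc25a20, the carnitine-acylcarnitine carrier that brings fatty acids into mitochondria, at 89.0 ± 13.1 CPM per kb. Both of these genes encode carriers of the inner mitochondrial membrane. The ranking leaves out Slc genes of the minus strand, and Slc25a4, Slc25a3, Slc2a4 and Slc8a1 are not among the genes ranked. Slc25a5 has near-identical paralogs and processed pseudogenes, and since reads with several matches were kept, its level is uncertain. The fatty acid transport protein gene Slc27a1 followed at 47.97 ± 8.66 CPM per kb and the phosphate carrier gene Slc20a2 at 38.9 ± 6.78 CPM per kb. Slc35f5 (34.4 CPM per kb), the creatine transporter gene Slc6a8 (34.0 CPM per kb), the anion exchanger gene Slc4a3 (32.4 CPM per kb), Slc35b1 (31.1 CPM per kb) and Slc41a3 (30.2 CPM per kb) lay within their SDs of each other. Slc17a7, a vesicular glutamate transporter gene known from neurons, was 10th in WT hearts at 21.3 ± 4.75 CPM per kb of RNA-seq, with values of 28.5 to 47.5 CPM in the 4 libraries. Its Ribo-seq level was 6.79 ± 2.01 CPM per kb of coding sequence, from 7.23 to 15.7 CPM per library, so that this gene was high in RNA but not in footprints.

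In Control C2C12 cells, Slc25a5 was again first at 568 ± 6.42 CPM per kb of transcript (SD, n = 3). Slc35b1, which exchanges ATP for ADP at the endoplasmic reticulum, followed at 63.6 ± 2.86 CPM per kb. The phosphate carrier gene Slc20a1 was at 54.5 ± 1.49 CPM per kb and Slc25a24, a mitochondrial ATP-Mg/phosphate carrier gene, at 49.1 ± 0.768 CPM per kb. The monocarboxylate carrier gene Slc16a11 was at 40.7 ± 2.56 CPM per kb, and Slc35b2, which imports the sulfate donor PAPS into the Golgi, at 40.3 ± 2.66 CPM per kb, which is within the spread of Slc16a11. Slc4a2 (37.7 CPM per kb), Slc2a1 (34.4 CPM per kb) and the choline carrier genes Slc44a1 (31.6 CPM per kb) and Slc44a2 (31.2 CPM per kb) completed the first 10. Only Slc25a5 and Slc35b1 were among the first 10 in both sources.

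**Figure D1:**
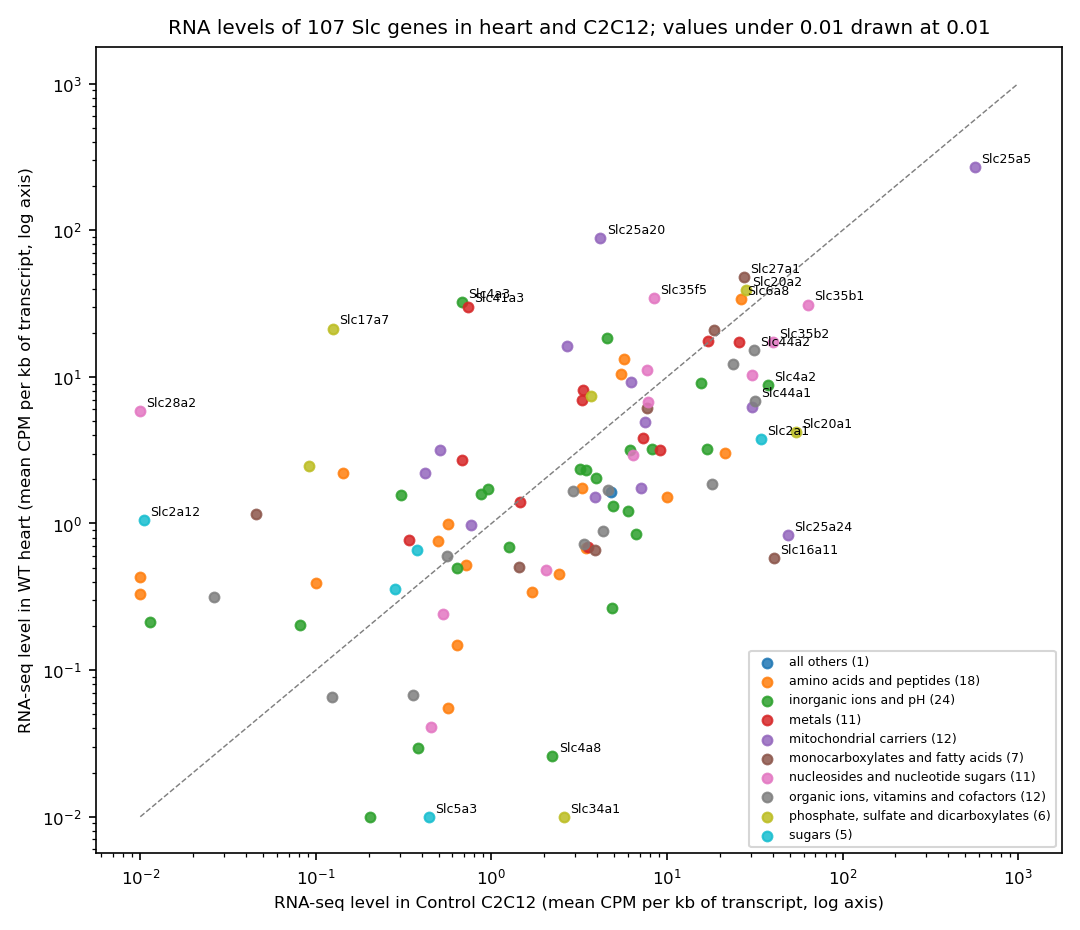
Mean RNA-seq level of each of the 107 Slc genes in WT heart (y axis, n = 4) against Control C2C12 (x axis, n = 3), in CPM per kb of transcript on log axes, coloured by role; the dashed line marks equal levels and means under 0.01 are drawn at 0.01. Slc25a5 is highest in both sources, Slc28a2, Slc17a7, Slc4a3 and Slc41a3 lie far above the line and Slc16a11, Slc25a24 and Slc34a1 far below it.

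WT hearts and Control C2C12 cells were compared to place each gene in the tissue or in the cell line. Of 98 Slc genes tested by the quasi-likelihood test of edgeR, 39 were higher and 37 lower in the heart at an adjusted p under 0.05. Among all 15835 transcripts tested, 80.7% passed (39.7% higher and 41% lower), so the share of Slc genes (76 of 98) lay near the background. With scaling to library totals in place of edgeR's trimmed mean of M-values (TMM), the median of all transcripts moved from -0.08 to -0.84 on the log2 scale and the Slc calls from 39 higher and 37 lower to 30 higher and 55 lower. Fitted changes are therefore given relative to the TMM scale, and bounds from a floor relative to library totals. Of 9 tested carriers of organic ions, vitamins and cofactors, 7 were lower and 0 higher in the heart (9 lower with library totals). Of 11 metal carriers 7 were higher and 2 lower, which became 5 and 4 with library totals.

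Slc28a2, which encodes the sodium-coupled nucleoside transporter CNT2, gave 13.4, 26.04, 27.3 and 23.4 CPM in RNA-seq of WT hearts and 0 in every Control library. Against a floor of 3 counts per library, it was at least 135-fold higher in the heart. Slc17a7 ranged from 28.5 to 47.5 CPM in WT hearts and from 0.140 to 0.370 CPM in Control cells (log2 fold change 7.93 ± 0.28, SE). Slc4a3, which encodes the cardiac chloride/bicarbonate exchanger AE3, gave 176, 255, 239 and 259 CPM in WT hearts and 4.95, 4.82 and 4.91 CPM in Control cells. The log2 fold change of Slc4a3 was 6.33 ± 0.17 (adjusted p = 9.95e-13). Slc2a12, a glucose transporter gene, was at 3.40 to 5.81 CPM in WT hearts and at most 0.0672 CPM in Control cells, and the magnesium transporter gene Slc41a3 differed by 6.07 ± 0.18 on the log2 scale. These 5 genes were chosen from those without overlap between the sources. Of 98 tested Slc genes 81 did not overlap, beside 86.1% of 6369 genes with 1 transcript per gene.

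On the other side, Slc34a1, a sodium-phosphate cotransporter gene of the kidney, was at 0 in every heart and at 6.54, 6.91 and 5.41 CPM in Control cells, at least 10.9-fold higher than the floor. Its Ribo-seq level in Control cells was at most 0.620 CPM. Slc5a3, the myo-inositol transporter gene, was also at 0 in RNA-seq of the WT hearts and at least 8.33-fold higher than the floor in Control cells. Among the called genes with RNA-seq counts in WT hearts, Slc16a11 (-5.62 ± 0.37), Slc25a24 (-5.09 ± 0.14) and the bicarbonate transporter gene Slc4a8 (-4.86 ± 0.39) had the largest fitted log2 differences on the C2C12 side. Bounds from the floor, on library totals, and fitted differences, on the TMM scale, were not ranked against each other. In Ribo-seq of the WT hearts, Slc5a3 was at 12.2, 10.2, 5.95 and 11.7 CPM. The same transcript gave 4.24 to 5.17 CPM of RNA-seq and 39.3 to 44.5 CPM of Ribo-seq in Control cells. It shares exon sequence with Mrps6 on the same strand (1.46% of its length), and its RNA-seq level is uncertain.

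Translational efficiency (TE) is the ratio of the Ribo-seq level per kb of coding sequence to the RNA-seq level per kb of transcript, on the log2 scale. Among 33 Slc genes with a mean count of 50 or more in both assays, the median TE level in WT hearts was 1.45, and it was 1.51 over 2976 genes. In Control C2C12 cells, the median was 1.58 over 51 Slc genes and 1.17 over 4048 genes. The levels within the family ranged from -0.80 to 4.22 in WT hearts and from -0.81 to 5.49 in Control cells.

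The highest TE levels in WT hearts were those of the lactate carrier gene Slc16a1 (4.22 ± 0.13, SE), the copper importer gene Slc31a1 (4.21 ± 0.13) and Slc38a9, whose product senses arginine at the lysosome (4.20 ± 0.10). These 3 levels were within their errors of each other. The proton exchanger gene Slc9a8 (3.49 ± 0.22) and the taurine transporter gene Slc6a6 (3.40 ± 0.43) followed. The lowest was that of Slc6a8 at -0.80 ± 0.15, below Slc35b1 (0.01 ± 0.15), Slc35b2 (0.26 ± 0.11), Slc4a1ap (0.71 ± 0.18) and Slc35f5 (0.79 ± 0.14). Slc6a8, 6th in RNA-seq per kb, thus had the lowest footprint density relative to RNA of the genes with a TE level in the heart. Genes with fewer counts, such as Slc17a7, have no TE level there.

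In Control C2C12 cells, 3 of the 5 highest TE levels (Slc31a1, Slc16a1 and Slc6a6) and 2 of the 5 lowest (Slc6a8 and Slc4a1ap) belonged to genes of the same end in the heart. Slc5a3, which has no TE level in the heart, was highest (5.49 ± 0.10). Slc31a1 (3.72 ± 0.07), the zinc exporter gene Slc30a1 (3.40 ± 0.13), Slc16a1 (3.04 ± 0.02) and Slc6a6 (2.91 ± 0.05) followed. Slc6a8 (-0.81 ± 0.05) and Slc4a2 (-0.74 ± 0.02) had the lowest, followed by Slc4a1ap (-0.06 ± 0.05), Slc20a1 (0.18 ± 0.05) and Slc27a1 (0.24 ± 0.04). Across the 27 genes with levels in both sources, Pearson's r was 0.867 and Spearman's rho 0.879. This is a correlation across genes that share transcript and coding lengths in both sources, given as a description.

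**Figure D2:**
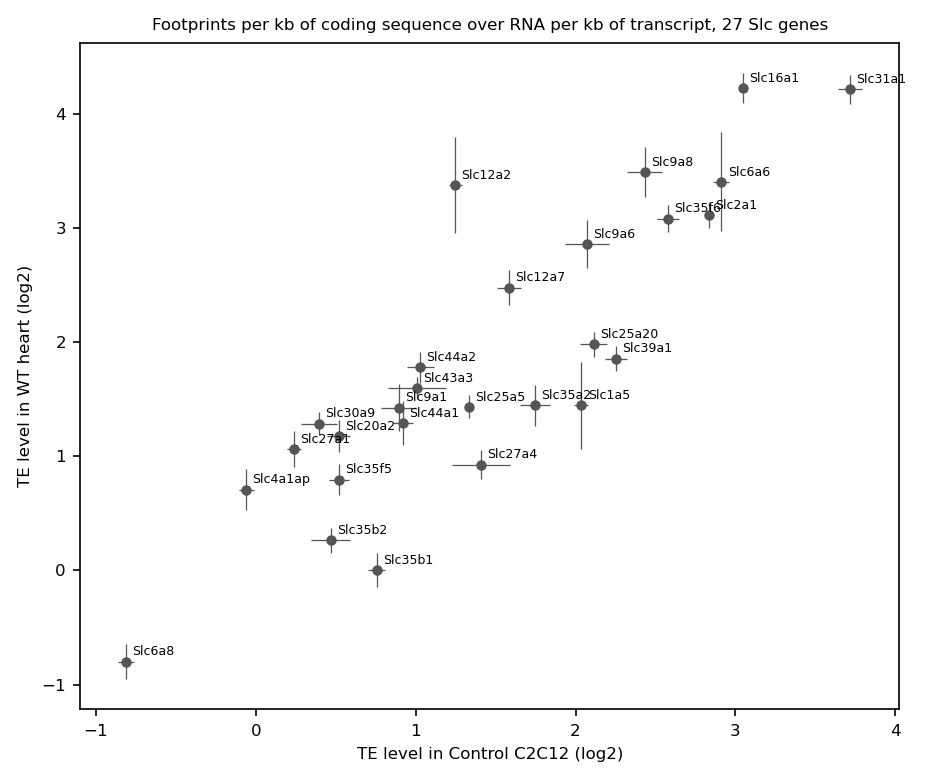
TE level (log2) of 27 Slc genes in WT heart (y axis, n = 4) against Control C2C12 (x axis, n = 3); bars are standard errors. Slc6a8 is lowest in both sources, Slc16a1 and Slc31a1 are at the high end of both, and Slc12a2 stands above the other genes of like TE in C2C12 cells.

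The difference in TE between WT heart and Control C2C12 was called for 35 of 83 Slc genes, 20 higher and 15 lower in the heart, against 47.9% of all 13989 transcripts (22.7% higher and 25.2% lower). With library totals, the calls were 31 higher and 8 lower, and the median of all transcripts moved from -0.04 to 0.32. Slc5a3 had the largest fitted increase in the heart, which is not given since its RNA-seq was at 0 there, and 4 ion carrier genes came next. The bicarbonate cotransporter gene Slc4a7 differed by 2.32 ± 0.24 (SE) and the anion exchanger gene Slc26a6 by 2.29 ± 0.63, but both counted transcripts are annotated as targets of nonsense-mediated decay. Slc4a4, which encodes the sodium-bicarbonate cotransporter NBCe1, differed by 2.05 ± 0.40 and the sodium-potassium-chloride cotransporter gene Slc12a2 by 1.86 ± 0.30. TE was lower in the heart for Slc20a1 (-1.89 ± 0.35), the heme transporter gene Slc48a1 (-1.25 ± 0.18), Slc25a10 (-1.20 ± 0.21), Slc35b1 (-1.11 ± 0.18) and the riboflavin transporter gene Slc52a2 (-1.08 ± 0.30). With library totals, Slc52a2 differed by -0.71 and was not called (adjusted p = 0.0718). Of 18 tested ion and pH carriers, 8 were higher in TE in the heart and 2 lower (14 and 0 with library totals).

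Rpl3l KO and WT hearts were compared to learn whether loss of RPL3L changes these genes. No Slc gene passed an adjusted p of 0.05 in edgeR's test, 0 of 98 in RNA-seq, 0 of 74 in Ribo-seq and 0 of 72 in TE. Among all transcripts, 0.013% were called in RNA-seq, 0.677% in Ribo-seq and 0% in TE. DESeq2 called 0 Slc genes in each as well. At an unadjusted p under 0.05, 4 genes remained in RNA-seq (background 2.29%), 10 in Ribo-seq (16.3%) and 5 in TE (6.43%). The median log2 fold change of the Slc genes was -0.02 in RNA-seq, 0.07 in Ribo-seq and 0.11 in TE, beside 0.00, 0.01 and 0.01 over all transcripts.

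The choline carrier gene Slc44a1 had the smallest p in RNA-seq. It gave 28.9, 27.9, 32.3 and 31.1 CPM in WT hearts and 22.5, 22.6, 24.5 and 25.6 CPM in KO hearts. All 4 KO values lay below all WT values, but with a log2 fold change of -0.33 ± 0.13 (SE) the adjusted p was 0.999. In Ribo-seq, Slc44a1 was at 24.5 to 41.6 CPM in WT and 28.6 to 36.1 CPM in KO hearts, and the groups overlapped. Slc52a2 was at 5.89 to 10.8 CPM of RNA-seq in WT and 4.30 to 6.68 CPM in KO hearts (-0.58 ± 0.24). Its TE had the smallest p of the TE test, with a log2 difference of 1.18 ± 0.38 and an adjusted p of 0.504.

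In Ribo-seq, Slc43a3, of the same family as the L-type amino acid carriers, was at 56.7, 63.7, 59.5 and 62.4 CPM in WT hearts and at 79.5, 84.8, 62.2 and 76.2 CPM in KO hearts. The lowest KO value was inside the WT range, and the log2 fold change of 0.37 ± 0.11 had an adjusted p of 0.123. Slc4a3 footprints were at 212, 195, 190 and 232 CPM in WT hearts and at 219, 259, 259 and 256 CPM in KO hearts, where the library of KO heart 1 overlapped WT. The log2 fold change of Slc4a3 was 0.30 ± 0.09 (adjusted p = 0.134), and that of Slc20a2 was 0.30 ± 0.09 (adjusted p = 0.135). TE of Slc20a2 differed by 0.39 ± 0.15 (adjusted p = 0.682).

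In RNA-seq, the genes that lead the family by RNA level overlapped between genotypes. Slc25a5 was at 340, 290, 326 and 385 CPM of RNA-seq in WT and at 357, 304, 350 and 353 CPM in KO hearts. Slc6a8 was at 154, 95.6, 153 and 136 CPM in WT and at 113, 105, 114 and 130 CPM in KO hearts. Slc16a1 was at 75.2 to 111 CPM of RNA-seq in WT and 85.02 to 123 CPM in KO hearts, and at 537 to 614 CPM and 481 to 554 CPM of Ribo-seq.

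**Figure D3:**
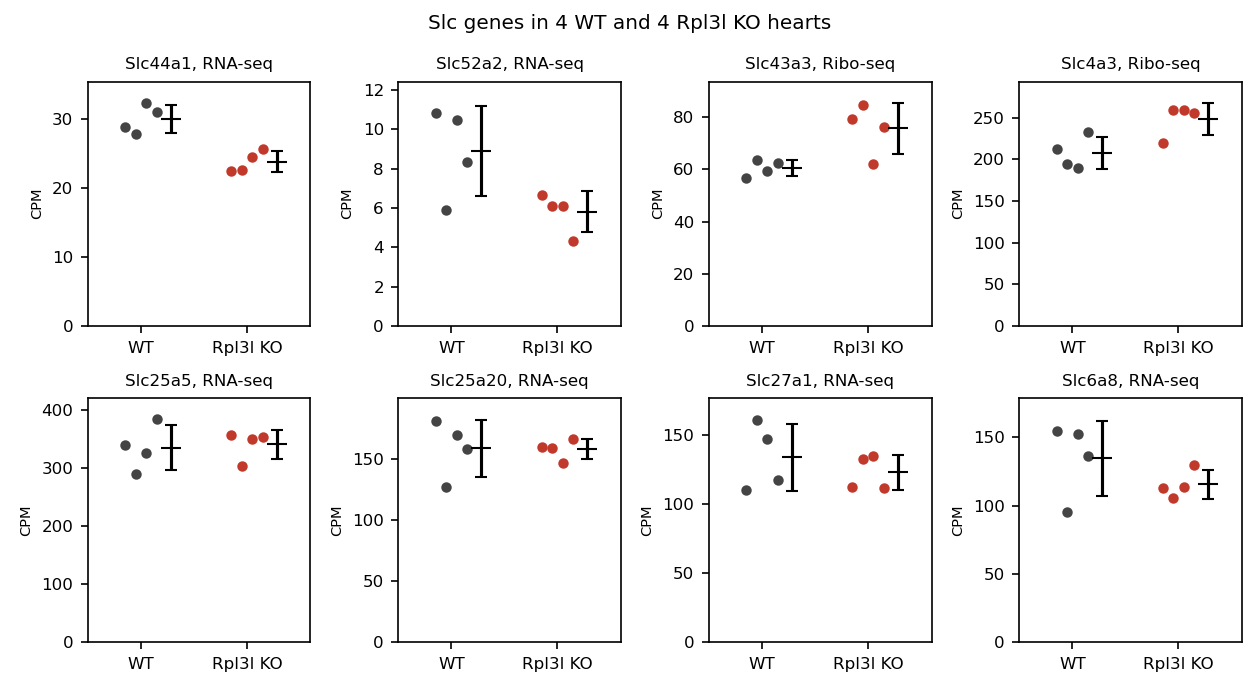
CPM of 8 Slc genes in WT (grey) and Rpl3l KO (red) hearts; points are single hearts in the order of their numbers, and bars are the mean ± SD (n = 4). The 2 genotypes separate fully only for Slc44a1 RNA-seq, and Slc43a3 and Slc4a3 footprints overlap by 1 KO heart.

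A few Slc genes varied among hearts together with the airway markers. The neutral amino acid exchanger gene Slc1a5 was at 20.0, 45.7, 16.5 and 32.7 CPM of RNA-seq in WT hearts 1 to 4 and at 43.8, 15.1, 102 and 15.3 CPM in KO hearts 1 to 4. Its Ribo-seq level was 41.04, 57.6, 32.7 and 57.1 CPM in WT and 97.6, 144, 33.6 and 30.4 CPM in KO hearts. The hearts with high Slc1a5 were those with high airway markers in each assay, KO hearts 1 and 3 in RNA-seq and KO hearts 1 and 2 in Ribo-seq. The summed fat markers were also highest in these KO hearts in each assay. Slc44a4, a choline transporter-like gene of epithelia, was at 1.48 and 2.94 CPM of RNA-seq in KO hearts 1 and 3, at 0 in KO hearts 2 and 4 and at most 0.453 CPM in WT hearts. Slc16a11 was at 4.45 and 8.21 CPM of RNA-seq in KO hearts 1 and 3 and at most 3.40 CPM in the others. The part of other tissue in these 3 genes was not tested. With only the hearts of an airway marker sum of 20 CPM or less, 2 of each genotype in each assay, 0 Slc genes were called, as with all hearts, and Slc44a1 RNA-seq differed by -0.25 ± 0.25 (SE). This fit holds too few hearts to bear on the markers.

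In C2C12 cells, RPL3L OE was compared with Control and with RPL3 OE to separate an effect of RPL3L from that of another copy of RPL3. The lactate exporter gene Slc16a3 (MCT4), the orphan monocarboxylate carrier gene Slc16a11 and the heme transporter gene Slc48a1 were lower in RPL3L OE cells than in both other groups in both assays. They were the only 3 Slc genes called in all 4 of these comparisons by edgeR, and 0 genes were called higher in all 4. DESeq2 called the same genes, except that it gave no adjusted p for Slc16a3 footprints against Control. Both comparisons share the RPL3L OE samples, so they are not independent of each other.

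Slc16a3 RNA-seq gave 9.08, 9.21 and 9.51 CPM in Control, 10.9, 14.2 and 11.997 CPM in RPL3 OE and 4.57, 5.27 and 4.43 CPM in RPL3L OE cells. Its footprints gave 18.7, 19.2 and 19.3 CPM in Control, 25.0, 26.8 and 24.1 CPM in RPL3 OE and 10.1, 5.55 and 10.8 CPM in RPL3L OE cells. The 3 groups did not overlap in either assay, with RPL3L OE lowest and RPL3 OE highest. Against Control, the log2 fold change in RPL3L OE cells was -0.97 ± 0.16 (SE, adjusted p = 6.55e-06) in RNA-seq and -1.13 ± 0.17 (adjusted p = 1.38e-05) in Ribo-seq. Against RPL3 OE, it was -1.39 ± 0.17 (adjusted p = 4.80e-10) and -1.52 ± 0.15 (adjusted p = 6.01e-10). Slc16a3 was higher in RPL3 OE than in Control by 0.42 ± 0.13 in RNA-seq (adjusted p = 0.0192), a call lost in 5 of 11 alternatives (0.32 without RPL3 OE sample 2).

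Slc16a11 RNA-seq gave 78.8, 74.1 and 84.0 CPM in Control, 94.4, 93.6 and 82.3 CPM in RPL3 OE and 54.7, 56.7 and 59.3 CPM in RPL3L OE cells. The RPL3L OE values lay below all others, by -0.48 ± 0.06 against Control (adjusted p = 1.54e-09) and -0.67 ± 0.06 against RPL3 OE (adjusted p = 7.04e-14) on the log2 scale. In Ribo-seq, the differences were -0.42 ± 0.06 and -0.52 ± 0.06. Slc48a1 RNA-seq gave 61.7, 58.0 and 62.0 CPM in Control, 68.9, 65.6 and 59.0 CPM in RPL3 OE and 50.8, 49.5 and 48.8 CPM in RPL3L OE cells. It was lower by -0.30 ± 0.06 and -0.38 ± 0.07 in RNA-seq and by -0.56 ± 0.09 and -0.46 ± 0.08 in Ribo-seq, against Control and RPL3 OE respectively. TE of these 3 genes was not called in any C2C12 comparison.

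The promoter stretches of the 2 monocarboxylate carrier genes are printed because both genes moved together in these cells and lie on chromosome 11. Each is the 250 bases before the RefSeq start on the plus strand of GRCm38.p6, written 5′ to 3′, with ACGTG and GCGTG, the 2 forms of the core of hypoxia response elements, in capitals.
Slc16a3, chr11:120948817-120949066: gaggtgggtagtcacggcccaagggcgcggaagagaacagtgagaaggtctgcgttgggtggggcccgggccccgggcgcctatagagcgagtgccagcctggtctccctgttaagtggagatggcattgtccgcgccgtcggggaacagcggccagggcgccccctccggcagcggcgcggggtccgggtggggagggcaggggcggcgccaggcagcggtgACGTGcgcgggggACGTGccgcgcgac
Slc16a11, chr11:70213660-70213909: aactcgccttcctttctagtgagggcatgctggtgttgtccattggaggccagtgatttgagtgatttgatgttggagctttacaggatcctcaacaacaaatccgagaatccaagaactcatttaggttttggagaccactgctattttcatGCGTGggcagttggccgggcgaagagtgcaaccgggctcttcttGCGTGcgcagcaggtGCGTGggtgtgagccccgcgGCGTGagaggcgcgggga
The Slc16a3 stretch has a G and C content of 73.6% and holds ACGTG 2 times and GCGTG 0 times. The Slc16a11 stretch has 54.8% G and C and holds ACGTG 0 times and GCGTG 4 times. The E-boxes CACGTG and CAGCTG, like the cores sought on both strands, are in neither stretch. Its RefSeq start lies 1158 bases downstream of the start of the counted Slc16a11 transcript, whereas both starts agree for Slc16a3. Of 27025 genes with a RefSeq promoter stretch, 18.5% hold ACGTG in at least 1 stretch, 30.9% GCGTG, 6.86% CACGTG, which contains ACGTG, and 14.7% CAGCTG. Of the 86 Slc genes among them, 20.9%, 50%, 12.8% and 17.4% hold them. The table used here has no entry for Slc48a1.

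**Figure D4:**
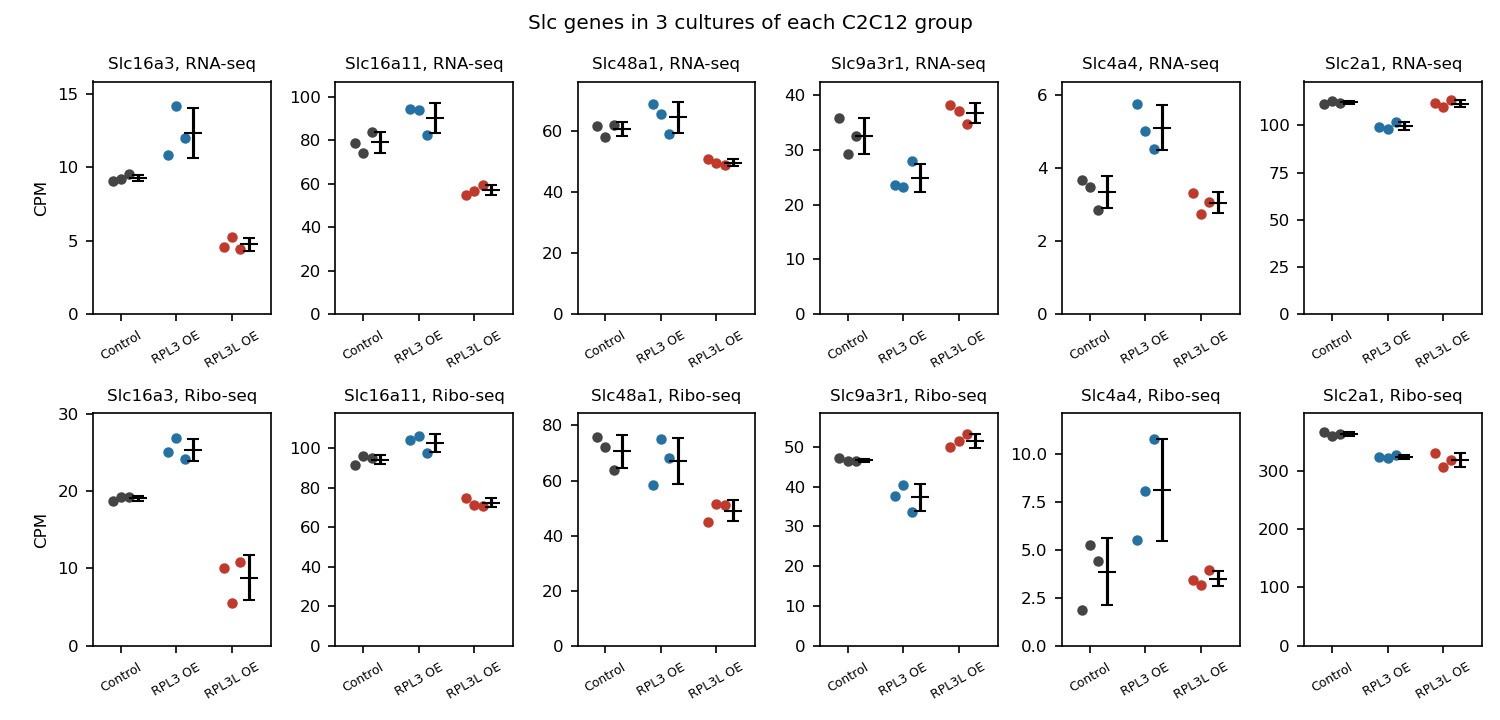
CPM of 6 Slc genes in RNA-seq (top) and Ribo-seq (bottom) of Control (grey), RPL3 OE (blue) and RPL3L OE (red) C2C12 cells; points are single samples and bars the mean ± SD (n = 3). RPL3L OE is lowest for Slc16a3, Slc16a11 and Slc48a1 in both assays, RPL3 OE is lowest for Slc9a3r1 and highest for Slc4a4, and Slc2a1 footprints are below Control in both OE groups.

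Against Control, 8 of 92 Slc genes were called in RNA-seq of RPL3L OE cells, 1 higher and 7 lower, beside 9.26% of all transcripts (4.65% higher and 4.61% lower). DESeq2 called 4, without Slc12a3, Slc25a16, Slc4a7 and Slc7a2, and edgeR 4 without RPL3L OE sample 3 and 5 without Control sample 3 or RPL3L OE sample 2. Slc35g1, of a nucleotide-sugar carrier family, was at 2.03, 1.88 and 1.61 CPM in Control and at 0.494, 0.917 and 0.412 CPM in RPL3L OE cells (log2 fold change -1.58 ± 0.40). In RPL3 OE cells it was at 0.785, 0.936 and 0.514 CPM (-1.31 ± 0.38 against the same Control samples). The cationic amino acid carrier gene Slc7a2 (-1.18 ± 0.37), the sodium-chloride cotransporter gene Slc12a3 (-1.47 ± 0.46) and Slc25a16 (-0.27 ± 0.09) were lower. Their calls were lost in 6, 5 and 10 of 11 alternatives, with the smallest values at -0.98 without Control sample 2, -1.17 without RPL3L OE sample 2 and -0.21 without RPL3L OE sample 2. Slc4a7 was the only gene higher, at 27.1, 27.7 and 25.6 CPM in Control and 34.6, 29.1 and 32.1 CPM in RPL3L OE cells (0.25 ± 0.08). Its call ended without Control sample 3 (0.21), RPL3L OE sample 1 (0.20) or RPL3L OE sample 3 (0.25), and that of Slc35g1 without RPL3L OE sample 3 (-1.34).

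In Ribo-seq, 8 of 78 genes were called against Control in RPL3L OE cells, 1 higher and 7 lower, beside 11.1% of all transcripts (5.38% higher and 5.69% lower). DESeq2 called 5 of the 8 and gave no adjusted p for Slc16a3, Slc35a2 and Slc37a4. Besides the 3 genes above, Slc37a4, the glucose-6-phosphate translocase gene (-0.75 ± 0.22), the UDP-galactose carrier gene Slc35a2 (-0.48 ± 0.11), Slc2a1 (-0.23 ± 0.05) and Slc25a5 (-0.21 ± 0.05) were lower. Slc2a1 footprints were at 366, 360 and 362 CPM in Control and at 330, 306 and 318 CPM in RPL3L OE cells, while its RNA-seq was at 111, 113 and 112 CPM and at 112, 110 and 113 CPM. Thus Slc2a1 footprints were lower where its RNA overlapped with Control. The phosphate carrier gene Slc20a1 was higher, with footprints at 131, 118 and 129 CPM in Control and 165, 146 and 151 CPM in RPL3L OE cells (0.25 ± 0.06, adjusted p = 0.00265). The call of Slc37a4 ended without any 1 of 4 samples (-0.60 without Control sample 1), and that of Slc25a5 without Control sample 3 (-0.19) or RPL3L OE sample 3 (-0.18).

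Against Control, RPL3 OE cells had 16 of 92 genes called in RNA-seq, 8 in each direction, beside 16.1% of all transcripts (8.12% higher and 7.96% lower). DESeq2 called 10, without Slc11a1, Slc16a3, Slc27a4, Slc35g1, Slc4a4 and Slc9a8, and edgeR 8 without RPL3 OE sample 3. The largest decreases were those of Slc11a1, a metal transporter gene of phagocytes (-1.39 ± 0.40), Slc35g1 and Slc4a3 (-0.79 ± 0.22). The proton exchanger gene Slc9a2 (-0.46 ± 0.08), Slc9a3r1 (-0.36 ± 0.08), Slc52a2 (-0.36 ± 0.10), the fatty acid transport protein gene Slc27a4 (-0.24 ± 0.08) and Slc2a1 (-0.16 ± 0.04) were also lower. The largest increase was that of Slc24a3, a potassium-dependent sodium-calcium exchanger gene, at 2.60, 2.72 and 2.42 CPM in Control and 4.84, 5.97 and 5.998 CPM in RPL3 OE cells (1.15 ± 0.21, adjusted p = 3.00e-05). Slc4a4 (0.63 ± 0.21), the amino acid carrier gene Slc36a4 (0.44 ± 0.12), Slc9a8 (0.28 ± 0.10) and Slc20a2 (0.16 ± 0.05) were also higher without overlap. Over all 11 alternatives, the call of Slc9a8 was lost in 6, those of Slc4a4 and Slc27a4 in 4 each, those of Slc11a1 and Slc20a2 in 3 each, that of Slc35g1 in 2 and that of Slc4a3 in 1. Without RPL3 OE sample 3, the calls of Slc11a1 (-1.25), Slc35g1 (-1.06), Slc4a3 (-0.58), Slc27a4 (-0.24), Slc9a8 (0.30) and Slc20a2 (0.15) ended. Without Control sample 3, those of Slc11a1 (-1.14), Slc4a4 (0.50), Slc9a8 (0.29) and Slc20a2 (0.13) ended. The call of Slc9a8 also ended without Control sample 2 (0.22) or RPL3 OE sample 1 (0.24) or 2 (0.29), that of Slc4a4 without RPL3 OE sample 1 (0.54) or 2 (0.64), that of Slc20a2 without Control sample 2 (0.12) and that of Slc27a4 without Control sample 1 (-0.21) or RPL3 OE sample 2 (-0.23).

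In Ribo-seq of RPL3 OE cells, 6 of 78 genes were called against Control, 2 higher and 4 lower, beside 10.6% of all transcripts (4.7% higher and 5.9% lower). DESeq2 called 2, Slc2a1 and Slc4a8, and edgeR 4 without Control sample 1 or RPL3 OE sample 2. Slc4a8 (-0.46 ± 0.10), Slc9a3r1 (-0.34 ± 0.09) and Slc2a1 (-0.19 ± 0.05) were lower, and Slc4a4 (1.07 ± 0.30) and Slc44a1 (0.22 ± 0.06) higher. Slc2a1 and Slc9a3r1 had the same sign in RNA-seq and Ribo-seq. Slc1a1, the glutamate transporter gene EAAT3, was called lower, but its footprints were at 8.04, 0.620 and 0.316 CPM in Control and at 0.219, 0 and 0 CPM in RPL3 OE cells. In RPL3L OE cells it was at 1.82, 0.185 and 7.88 CPM, so 1 sample holds most of the footprints in each of these groups. Without Control sample 1, it fell below the count minimum. The calls ended without 1 sample for Slc4a4 (0.66 without Control sample 1, and also without RPL3 OE sample 2 or 3) and Slc44a1 (0.19 without Control sample 1).

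More Slc genes, like more of all transcripts, separated the 2 OE groups from each other than either from Control. In RNA-seq, 24 of 92 were called, 9 higher and 15 lower in RPL3L OE cells, beside 27% of all transcripts (13% higher and 14.1% lower). In Ribo-seq, 19 of 78 were called, 3 higher and 16 lower, beside 18.9% of all transcripts, 9.59% higher and 9.27% lower. DESeq2 called 20 in RNA-seq and 11 in Ribo-seq, where it lost Slc10a7, Slc1a1, Slc24a3, Slc35a2, Slc39a9, Slc43a1, Slc43a3 and Slc44a1. Whether the direction of the Slc genes differs from that of other genes was not tested. Of 77 genes tested in both assays, 11 were called in both, all with the same sign, 12 in RNA-seq only, 7 in Ribo-seq only and 47 in neither.

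By role, the 10 tested mitochondrial carriers held 3 that were lower in RNA-seq of RPL3L OE than of RPL3 OE cells, Slc25a16 (-0.29 ± 0.10), Slc25a24 (-0.15 ± 0.04) and Slc25a5 (-0.10 ± 0.03). Of 14 genes in the amino acid role, Slc7a2 (-1.07 ± 0.41), Slc36a4 (-0.50 ± 0.13) and Slc6a8 (-0.14 ± 0.05) were lower and 0 higher. Among 22 ion and pH genes, 4 were higher and 2 lower. Over all transcripts tested, 13% were higher and 14.1% lower, and no role was tested against the rest. The higher ones were Slc4a3 (0.86 ± 0.24), Slc9a3r1 (0.53 ± 0.09), Slc9a2 (0.45 ± 0.09) and Slc4a8 (0.34 ± 0.09), and the lower ones Slc24a3 (-1.35 ± 0.25) and Slc4a4 (-0.74 ± 0.24). Slc24a3 RNA-seq was at 2.60, 1.83 and 2.26 CPM in RPL3L OE cells, which overlaps Control, while RPL3 OE stood apart at 4.84 to 5.998 CPM. Likewise, Slc4a4 was at 2.75 to 3.34 CPM in RPL3L OE, 2.86 to 3.68 CPM in Control and 4.54 to 5.75 CPM in RPL3 OE cells. The calls of Slc25a16 and Slc6a8 ended with DESeq2 and without any 1 of 5 and of 2 samples, and that of Slc25a5 without either of 2. Calls ended without RPL3 OE sample 3 for Slc4a3 (0.65), without RPL3 OE sample 2 for Slc7a2 (-0.52, and also without any RPL3L OE sample) and without RPL3 OE sample 1 (-0.65) or RPL3L OE sample 2 (-0.67) for Slc4a4.

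The folate carrier gene Slc46a1 (0.52 ± 0.19), the nucleoside carrier gene Slc29a2 (0.39 ± 0.11), Slc27a4 (0.27 ± 0.08), Slc20a1 (0.18 ± 0.04) and Slc2a1 (0.15 ± 0.05) were the other genes with higher RNA in RPL3L OE than in RPL3 OE cells. The call of Slc46a1 ended without any 1 of 4 samples (0.36 without RPL3L OE sample 1). The 2 phosphate carriers of the SLC20 family moved in opposite directions. Slc20a1 was higher in RPL3L OE cells in both assays (0.18 ± 0.04 in RNA-seq and 0.26 ± 0.05 in Ribo-seq) and Slc20a2 was lower in both (-0.20 ± 0.05 and -0.27 ± 0.06). Slc10a7 was lower in both as well (-0.46 ± 0.12 and -0.47 ± 0.13).

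Of the genes called in Ribo-seq only, the zinc transporter genes Slc39a9 (-0.42 ± 0.11) and Slc39a1 (-0.28 ± 0.05), the anion exchanger gene Slc4a2 (-0.27 ± 0.06), Slc35a2 (-0.40 ± 0.11), Slc43a1 (-1.002 ± 0.34) and Slc43a3 (-0.40 ± 0.14) were lower in RPL3L OE cells. Slc39a9 footprints were at 18.4, 18.3 and 18.9 CPM in RPL3L OE and 23.9, 24.4 and 26.4 CPM in RPL3 OE cells, with Control at 19.2, 20.1 and 19.3 CPM. Slc1a1, not tested in RNA-seq for its low counts, was called higher in Ribo-seq, but its groups overlapped and it shares 32% of its length with a gene on the opposite strand. The calls of Slc43a1 (-0.76 without RPL3 OE sample 3) and Slc43a3 (-0.25 without RPL3 OE sample 2) ended without any 1 of 3 and 4 samples, and that of Slc10a7 without RPL3 OE sample 2 (-0.44).

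**Figure D5:**
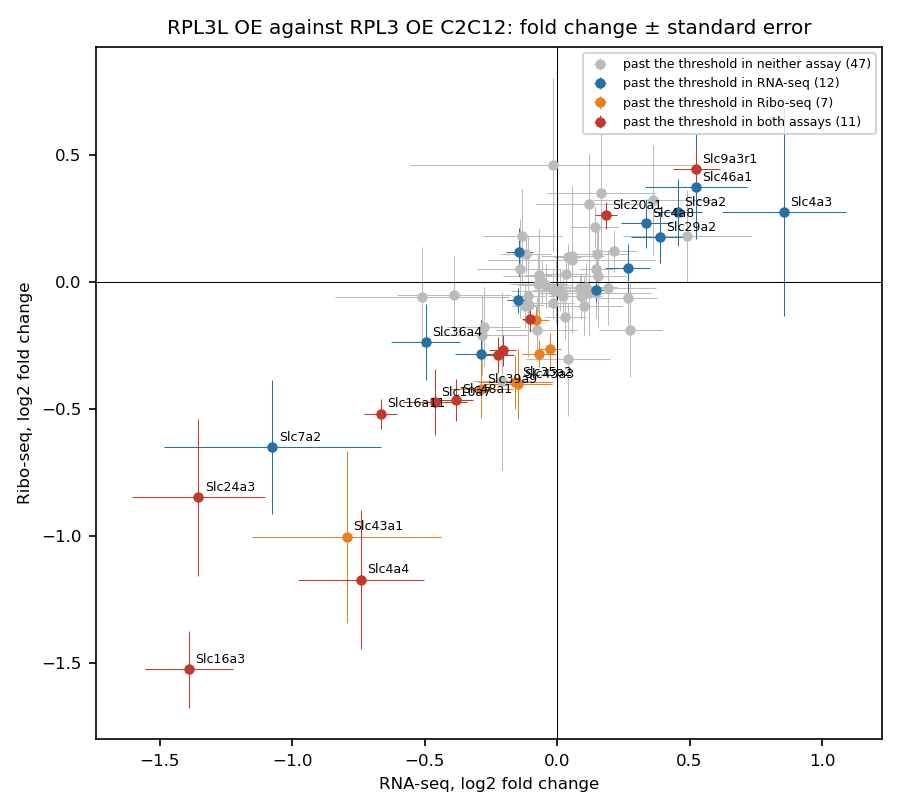
Log2 fold change of RNA-seq (x axis) and of Ribo-seq (y axis) in RPL3L OE against RPL3 OE cells for the Slc genes tested in both assays, with bars of 1 standard error. Of the 77 genes, the 11 called in both assays (red) lie at the lower left or upper right, with Slc16a3 lowest in both.

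TE was called for 2 of 77 Slc genes in RPL3L OE against Control, both lower, beside 2.08% of all transcripts (0.951% lower). Slc37a4 was lower by -0.95 ± 0.26 (adjusted p = 0.0361) and Slc2a1 by -0.22 ± 0.06 (adjusted p = 0.0433). The calls were lost in 4 of 10 and 7 of 11 alternatives, among them without Control sample 1 (-0.81 and -0.22) and without RPL3L OE sample 3 (-0.90 and -0.20). Slc37a4 footprints were at 10.9, 9.60 and 6.95 CPM in Control and 4.44, 6.48 and 5.91 CPM in RPL3L OE cells, while its RNA-seq was at 7.61 to 7.81 CPM and 7.56 to 9.78 CPM. No Slc gene was called in TE in RPL3 OE against Control (background 0.052%) or in RPL3L OE against RPL3 OE (0.305%), with 5 genes each at an unadjusted p under 0.05 (backgrounds 7.83% and 9.02%).

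Genes that act with these carriers were taken from lists chosen with earlier results known. Of 14 partners of Slc proteins, 5 were tested in RNA-seq of C2C12 cells. Emb, which encodes embigin, an accessory protein of monocarboxylate carriers, was lower in RPL3L OE cells by -0.59 against Control (adjusted p = 0.0188) and by -0.49 against RPL3 OE (adjusted p = 0.0484), but was not called in Ribo-seq. Bsg, which encodes basigin, the partner of MCT1 and MCT4, was lower in RNA-seq against RPL3 OE by -0.15 (adjusted p = 6.29e-04) and in Ribo-seq against Control by -0.18 (adjusted p = 0.0175). Bsg was not called in RNA-seq against Control (-0.07) or in Ribo-seq against RPL3 OE (-0.11). Txnip, which promotes removal of glucose transporters from the cell surface, was higher in RNA-seq by 0.78 against Control and 0.97 against RPL3 OE, and in Ribo-seq by 0.75 and 0.98. In the hearts, 0 of 5 partners were called in RNA-seq, Ribo-seq or TE.

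In RNA-seq of C2C12 cells, 7 genes of the ATF4 amino acid response were tested. Atf4 was higher in RPL3L OE cells against Control, and 0 were called in RPL3 OE cells. Against RPL3 OE, 1 was higher and 1 lower (Atf4 and Eif4ebp1). In Ribo-seq against Control, Cebpb was lower in RPL3L OE (-0.24 ± 0.07) and RPL3 OE cells (-0.32 ± 0.07). Eif4ebp1 footprints were lower in RPL3L OE cells (-0.19 ± 0.06). Chac1 footprints were lower in RPL3L OE against RPL3 OE (-0.67 ± 0.22). Cebpb footprints were higher in Rpl3l KO than in WT hearts (1.15 ± 0.12). Its RNA (0.62 ± 0.15) and its TE (0.52 ± 0.19) were not called in the hearts. In RNA-seq, ABC transporters (10 tested) had 1 gene lower in each OE group against Control, and 2 higher and 1 lower in RPL3L OE against RPL3 OE. In Ribo-seq against Control, Abcb8, Abcb4 and Abcg8 were lower and Abcg2 higher in RPL3L OE cells, and Abcg1 was lower in RPL3 OE cells. Against RPL3 OE, Abca2 and Abca7 footprints were higher and Abcb8 footprints lower in RPL3L OE cells. Of 4 transport ATPases tested in RNA-seq, 0 were called in RPL3L OE and Atp2b1, a calcium pump gene, was lower in RPL3 OE cells against Control. Against RPL3 OE, Atp2b1 (0.14 ± 0.04), the copper pump gene Atp7a (0.34 ± 0.13) and Atp13a2 (0.28 ± 0.11) were higher in RNA-seq of RPL3L OE cells. Atp13a2 footprints were lower in RPL3 OE than in Control cells (-0.54 ± 0.17), and Atp2b1 footprints higher in RPL3L OE than in RPL3 OE cells (0.14 ± 0.05). The shares over all transcripts in these comparisons were 9.26%, 16.1% and 27% in RNA-seq and 11.1%, 10.6% and 18.9% in Ribo-seq. In Ribo-seq of KO against WT hearts, the share was 0.677%.

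Muscle and collagen genes also differed between the C2C12 groups, and their part in the Slc values was not tested. The 5 myoblast markers of 10 in the table summed to 4827 to 4845 CPM of RNA-seq in Control, 4725 to 4799 CPM in RPL3 OE and 5052 to 5324 CPM in RPL3L OE cells, with none at 0. Myod1 (-0.72 ± 0.06), Cdh15 (-0.44 ± 0.04) and Des (-0.57 ± 0.04) were lower in RNA-seq of RPL3 OE cells than of Control, and Cdh15, Vim and Des were higher in RPL3L OE cells. In RPL3L OE against RPL3 OE, Myod1 (0.79 ± 0.07), Cdh15 (0.76 ± 0.05) and Des (0.76 ± 0.04) were higher in RNA-seq, and in Ribo-seq by 0.66, 0.55 and 0.74. The 7 fibroblast markers of 8 in the table summed to 1744 to 1822 CPM in Control, 2616 to 2654 CPM in RPL3 OE and 1928 to 1964 CPM in RPL3L OE cells. Col1a1 and Col1a2, which encode the chains of type I collagen, were higher in RNA-seq of RPL3 OE cells against Control (1.18 ± 0.03 and 0.58 ± 0.03) and lower in RPL3L OE against RPL3 OE cells (-0.87 ± 0.03 and -0.52 ± 0.03). In Ribo-seq, they differed by 0.81 and 0.46 and by -0.76 and -0.49. The other fibroblast markers tested were not called in RNA-seq of RPL3 OE cells against Control. These were Postn (0.39), Col3a1 (0.08), Dcn (0.01) and Pdgfra (-0.57). In RPL3L OE cells against Control, Col1a1 RNA was also higher (0.31 ± 0.03), and Col1a2 RNA was not called (0.06 ± 0.03).

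The coding sequences of the Slc genes were compared with those of 6751 genes, since RPL3L is studied for its effect on elongation at particular codons. Codons with T in the second position, which encode hydrophobic residues, made up a median of 35.7% in Slc genes and 26.4% in all genes. Lys codons made up 3.69% and 5.62%, Ala codons 7.88% and 6.88% and Pro codons 4.89% and 5.51%. The G and C content was 54.9% and 53.1%. Across 72 Slc genes, the TE difference between KO and WT hearts correlated with the share of Pro and Ala codons at r = 0.282 (rho = 0.225), and across 5262 genes at r = 0.314 (rho = 0.34). For RPL3L OE against Control, r was -0.136 (rho = -0.195) across 77 Slc genes and -0.255 (rho = -0.307) across 5391 genes. For RPL3 OE against Control, r was 0.0783 (rho = 0.0415) across the same Slc genes and -0.153 (rho = -0.191) across all genes. For RPL3L OE against RPL3 OE, r was -0.262 (rho = -0.31) and -0.124 (rho = -0.169). With the share of Lys codons, r in hearts was -0.357 across the Slc genes and -0.258 across all genes. The Lys values were 0.0226 and 0.246 for RPL3L OE against Control and 0.121 and 0.0872 for RPL3 OE against Control. Between RPL3L OE and RPL3 OE, they were -0.11 and 0.18. These are correlations across genes, which are not independent replicates and share libraries, given as descriptions.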

How the data were processed

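RNA-seq and Ribo-seq of hearts (4 per genotype) and of C2C12 cells (3 per group) were analysed. The authors deposited read counts per transcript without normalization. Per the authors' methods, Ribo-seq reads were trimmed with cutadapt, filtered with the FASTX-Toolkit, cleared of rRNA and aligned with STAR to the GRCm38.p6 transcriptome with multiple mapping allowed, deduplicated with UMI-tools and counted with featureCounts. Versions, the strand setting and the RNA-seq read processing are not given in the sources used here. Isoforms and overlapping genes can share reads: Slc6a9 shares 45.1% of its length with Ccdc24 on the opposite strand.

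Each of 23877 transcripts stood on 2 identical lines, of which 1 was kept, and 23662 matched a GENCODE M21 symbol. The most abundant transcript of each gene was taken. Transcripts with a mean count of 10 or more in the assays compared were fitted in edgeR 4.0.16 under R 4.3.3 (quasi-likelihood F-test, TMM factors per assay), with Benjamini-Hochberg adjusted p-values over all transcripts. TE was tested as the interaction of group and assay. The C2C12 fits held all 3 groups. CPM was computed on library totals with pandas 2.3.3, and the fits were tested on simulated data.

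The members, lists and tests were chosen with earlier results of these data known. Named were the 10 highest RNA levels per kb in each source, the largest called changes without overlap in each comparison (up to 8 in each direction, 5 between heart and C2C12, or the 2 smallest p where none was called), the 5 highest and lowest TE levels and members of a textbook list. Slc1a5, Slc44a4 and Slc16a11 in hearts, and Slc39a1, Slc4a2, Slc10a7 and Slc6a8 in C2C12 cells, were chosen after their values were seen. Alternatives were DESeq2 1.42.0, library totals, no filter, leaving out each sample and a replicate block. Disome-seq and m6A-seq were not used here, and protein features were not computed.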

Additional observations from a re-analysis of the deposited data

Results flagged for a closer look

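In 5 of 96 groups of 4 hearts, 1 library stood apart from the other 3 by Dixon's ratio (the gap to the nearest other library over the whole range). Chance gives about 1 in 20 groups. Slc12a2 RNA-seq was at 3.75 CPM in KO heart 2 and at 8.78 to 9.80 CPM in the other KO hearts (ratio 0.832). Slc25a5 RNA-seq was at 304 CPM in the same library and at 350 to 357 CPM in the others (ratio 0.876). Slc35b1 footprints were at 22.96 CPM in WT heart 3 and at 32.6 to 32.7 CPM in the others (ratio 0.988). Slc43a3 RNA-seq was at 40.9 CPM in WT heart 3 and at 32.1 to 32.3 CPM in the others (ratio 0.975). Slc4a3 footprints were at 219 CPM in KO heart 1 and at 256 to 259 CPM in the others (ratio 0.925).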

How the results depend on the processing

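Among the alternatives run, no named difference changed sign, but library totals moved the Slc calls of heart against C2C12 from 39 higher and 37 lower to 30 and 55. With DESeq2, the counts of called Slc genes were 4 in RNA-seq of RPL3L OE against Control and 10 of RPL3 OE against Control, and in Ribo-seq 5 and 2, with 11 for RPL3L OE against RPL3 OE. TE calls of RPL3L OE against Control numbered 1 without the filter on counts, 1 with library totals and 1 with DESeq2. The other 66 counts under settings that keep all samples stayed within 1.5 times. Of the named genes, 473 values stayed the same, either on their side of the threshold or, for levels, within 1 SD. A further 28 lost the threshold and 40 levels moved by more than 1 SD, mostly on the TMM scale.

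Leaving out 1 sample at a time, the RNA-seq counts ranged from 4 to 7 (RPL3L OE against Control), 8 to 15 (RPL3 OE against Control) and 20 to 24 (RPL3L OE against RPL3 OE), and the Ribo-seq counts from 6 to 10, 4 to 6 and 13 to 17. TE counts ranged from 0 to 2 for RPL3L OE against Control and were 0 for the others. The RNA-seq count of RPL3L OE against Control was 5 without Control sample 3, 5 without RPL3L OE sample 2 and 4 without RPL3L OE sample 3, and that of RPL3 OE was 8 without RPL3 OE sample 3. The TE count was 0 without Control sample 1, Control sample 2 or RPL3L OE sample 3, and 1 without Control sample 3 or RPL3L OE sample 2. Heart counts stayed at 0, and heart against C2C12 gave 68 to 78 in RNA-seq and 25 to 36 in TE.

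Samples of the same number in different groups did not deviate together: correlations were under 0.07 in C2C12 cells, all negative in heart RNA-seq and from -0.42 to 0.51 in heart Ribo-seq, so the numbers were not taken as pairs. With the replicate number as a block, C2C12 counts were 7, 16 and 24 in RNA-seq, 8, 7 and 18 in Ribo-seq and 3, 0 and 0 in TE, and heart counts were 0, also with KO hearts 2 and 3 exchanged, an alternative chosen after seeing the data. No paired analysis was possible because hearts and cultures share no animal or culture in the comparison of heart with C2C12. The lowest WT heart library held 3594696 RNA-seq counts and the lowest KO Ribo-seq library 1606700, which limits genes of few counts, and 9 of 107 genes were not tested in heart RNA-seq.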
